A study of Mus musculus with 25 samples.

Results

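The genes followed here make, take up, move and store cholesterol. They were chosen as a list of 31 gene symbols, and every probe of the deposited signal table that carried one of these symbols was taken. Probes were found for 27 of the 31 genes (37 probes among 25697), and 24 genes had a probe above background on enough arrays to be tested, among 10688 genes tested in all. Hmgcs1, Mvk, Fdft1 and Npc1 had no probe under these symbols and were not analysed here. The isomerase gene Idi1 and the efflux pump genes Abca1 and Abcg1 had probes that did not pass the filter on low signals. Idi1 and Abca1 were above background on 0 of 20 follicle arrays, and Abcg1 on 1.

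Cells build cholesterol from acetyl-CoA. The mevalonate pathway makes isoprenoid units, squalene is formed from them and closed to lanosterol, and a chain of demethylations, reductions and an isomerisation turns lanosterol into cholesterol. The enzymes are controlled together by the transcription factor SREBP2, which the escort protein SCAP carries out of the endoplasmic reticulum when sterol is scarce and which the INSIG proteins hold back when sterol is plentiful. In the ovary cholesterol is the precursor of every steroid hormone; the follicle's granulosa cells lie behind a basement membrane that large lipoproteins do not cross, and the oocyte depends on the granulosa cells for cholesterol.

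Transcripts were measured on Illumina bead arrays in total RNA from multilayered secondary follicles of CD-1 mice that were 16 days old. Follicles of 150 to 180 µm were dissected out mechanically, sealed one by one in alginate (the series title gives 3%) and kept in 100 µl of αMEM, part of which was renewed every 2 days; it held FSH at 10 mIU/ml, albumin at 3 mg/ml, fetuin at 1 mg/ml, selenium at 5 ng/ml, and insulin and transferrin each at 5 µg/ml. Each array held RNA from a pool of 20 to 40 follicles taken at day 0 (n = 5) or after 2, 4, 5, 6 or 8 days of culture (n = 3 each), and 5 further arrays labelled as a brain reference served here only for detection. All follicle groups share the strain, the age of the donors and the dissection; no lipoprotein is named among the additions to the medium. There was no group of follicles grown in the animal, so time in culture and growth of the follicle cannot be told apart. The labels mention 3 independent experiments, whereas day 0 has 5 arrays titled REF0; whether these came from separate pools is not stated, so p-values may measure technical spread.

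Promoter sequence is shown for the enzymes whose transcripts rose most, to set a motif known from sterol-regulated promoters beside the changes. RefSeq promoter windows (GRCm38.p6; 250 bases before to 50 bases after the start of the gene) were given for 24 of the 31 genes. The NF-Y box, the CCAAT letters bound by the factor NF-Y that works beside SREBP at sterol-regulated promoters, was searched on both strands (ATTGG on the other). It was present in 15 of 16 synthesis enzymes with a window (93.8%), in 5 of the 8 other members (62.5%) and in 11096 of 27025 genes overall (41.1%). The 150 bases before the start are printed 5′ to 3′ with NF-Y boxes of either strand in capitals for Lss (chr10:76531455-76531604 on the plus strand), Nsdhl (chrX:72918371-72918520 on the plus strand), Mvd (chr8:122443423-122443572 on the minus strand) and Sc4mol (chr8:64733579-64733728 on the minus strand), the 4 enzymes with a window that rose most at day 2. For contrast Lbr (chr1:181842402-181842551 on the minus strand), the tested enzyme that passed in no comparison, and Acat2 (chr17:12960726-12960875 on the minus strand), the enzyme without a match, follow.
Lss: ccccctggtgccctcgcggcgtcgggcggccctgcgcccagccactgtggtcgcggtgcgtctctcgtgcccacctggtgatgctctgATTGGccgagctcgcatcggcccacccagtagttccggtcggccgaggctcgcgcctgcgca
Nsdhl: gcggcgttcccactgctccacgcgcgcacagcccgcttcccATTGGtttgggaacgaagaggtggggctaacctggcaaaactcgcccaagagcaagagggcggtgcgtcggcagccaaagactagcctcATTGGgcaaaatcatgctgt
Mvd: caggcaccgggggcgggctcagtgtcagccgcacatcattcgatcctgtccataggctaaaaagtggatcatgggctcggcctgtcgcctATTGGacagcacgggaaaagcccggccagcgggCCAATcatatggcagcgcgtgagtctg
Sc4mol: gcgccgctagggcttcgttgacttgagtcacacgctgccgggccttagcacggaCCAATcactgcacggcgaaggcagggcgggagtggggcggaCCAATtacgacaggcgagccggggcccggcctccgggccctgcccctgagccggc
Lbr: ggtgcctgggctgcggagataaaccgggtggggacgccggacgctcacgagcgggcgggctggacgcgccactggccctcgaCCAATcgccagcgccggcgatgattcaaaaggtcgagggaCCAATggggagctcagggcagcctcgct
Acat2: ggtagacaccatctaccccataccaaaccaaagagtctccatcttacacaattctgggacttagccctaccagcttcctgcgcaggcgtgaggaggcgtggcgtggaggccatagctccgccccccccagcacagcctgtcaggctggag
The first 4 were ranked by the fit used throughout. Within the 150 printed bases each of the first 4 holds 1 or 2 boxes. The shares above are for the full window, where Nsdhl has further boxes at positions 8 and 34 from the start and Sc4mol at −160. In the printed bases Lbr, which did not pass, holds 2 as well, and Acat2, which rose, holds 0. The core of the sterol regulatory element (TCACNCCAC, both strands) was matched in 1 of the 24 genes, Hmgcs1, and in 1.44% of all genes, and that match did not overlap an NF-Y box. The palindromic E-box form of the SREBP site (TCACGTGA) was matched in 0 of 24 and in 1.12% of all genes. These are matches of letters in a short window, and no binding was measured.

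Markers of the cell types of a follicle were present: each of the 8 granulosa, 6 theca and 9 oocyte markers tested was above background on at least 1 day 0 array, Foxl2 on 2 of 5 and the others on 5 of 5. The summed signal of the granulosa markers went from between 17620 and 26830 at day 0 to between 28950 and 40620 at day 2 and between 48800 and 67680 at day 8 (4 of 8 markers rose and 1, Amh, fell, day 8 against day 0), and that of the oocyte markers from between 57550 and 63380 to between 39030 and 42150 and then between 13940 and 15600 (8 of 9 fell). Theca markers summed to between 3059 and 3300 at day 0, between 1298 and 1607 at day 2 and between 8525 and 13700 at day 8. Day 8 against day 0, 4 of 6 rose (Cyp17a1, Insl3, Lhcgr and Cyp11a1), while Ptch1 (log2 change 0.03) and Tcf21 (0.26) did not pass. At day 2 against day 0, 1 of the 6 rose (Lhcgr) and 1 fell (Cyp17a1, mean log2 level 11.26 and then 9.39). Bright genes weigh most in these sums, such as Cyp17a1 here and Inhba (9.35 at day 0, 14.75 at day 8) among granulosa markers. Red blood cell markers summed to between 2407 and 3369 at day 0 and to between 89.5 and 117 at day 2 (4 of 4 fell). At day 8 against day 0, 4 of 4 smooth muscle and 4 of 4 surface epithelium markers fell, endothelium had 1 higher and 4 lower of 6, and macrophages had 3 higher and 4 lower of 9. Their part in the results that follow was not tested, and in such pooled RNA fewer cells of a type and less RNA per cell cannot be told apart. Day 6 repeat 1 stood apart: its log2 differences from the other day 6 arrays had an SD of 0.69 and 0.71 over genes, against 0.31 between those. Day 0 repeat 4 differed from the other day 0 arrays with an SD between 0.33 and 0.41, against 0.20 to 0.29 among the others.

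Levels are given as log2 signal after background correction and normalization between arrays, where 1 unit is a doubling. A gene was called when its adjusted p in limma (Benjamini-Hochberg over all 10688 genes) was under 0.05. After 2 days in culture, 14 of the 24 genes rose (12.1% of all genes did) and 0 fell (13.1% of all genes did). At an unadjusted p under 0.05 the limma counts were 19 higher and 0 lower. Shares of all genes that rose or fell are for the adjusted threshold only, here and below, and are no baseline for unadjusted counts. The median change of the 24 was 0.68 on the log2 scale and that of all genes was close to 0. The rise was carried by the synthesis enzymes, 13 of 15 of which passed, with 1 of 3 genes of uptake and transport, 0 of 4 regulators and 0 of 2 genes of ester storage. In the authors' normalized values, which hold 21 of the 24 genes, 11 rose and the median was 0.35. Lss, Cyp51 and Sc5d are not among the 21. The share of all genes called in those values is not given, so this count has no baseline here. With day 0 as 1 sample, given next, calls over all genes fell as well (closing section). When the 5 day 0 arrays were averaged and counted as 1 sample, 8 genes rose; Acat2, Pmvk, Sqle, Hsd17b7, Ebp and Sc5d then no longer passed.

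**Figure D1:**
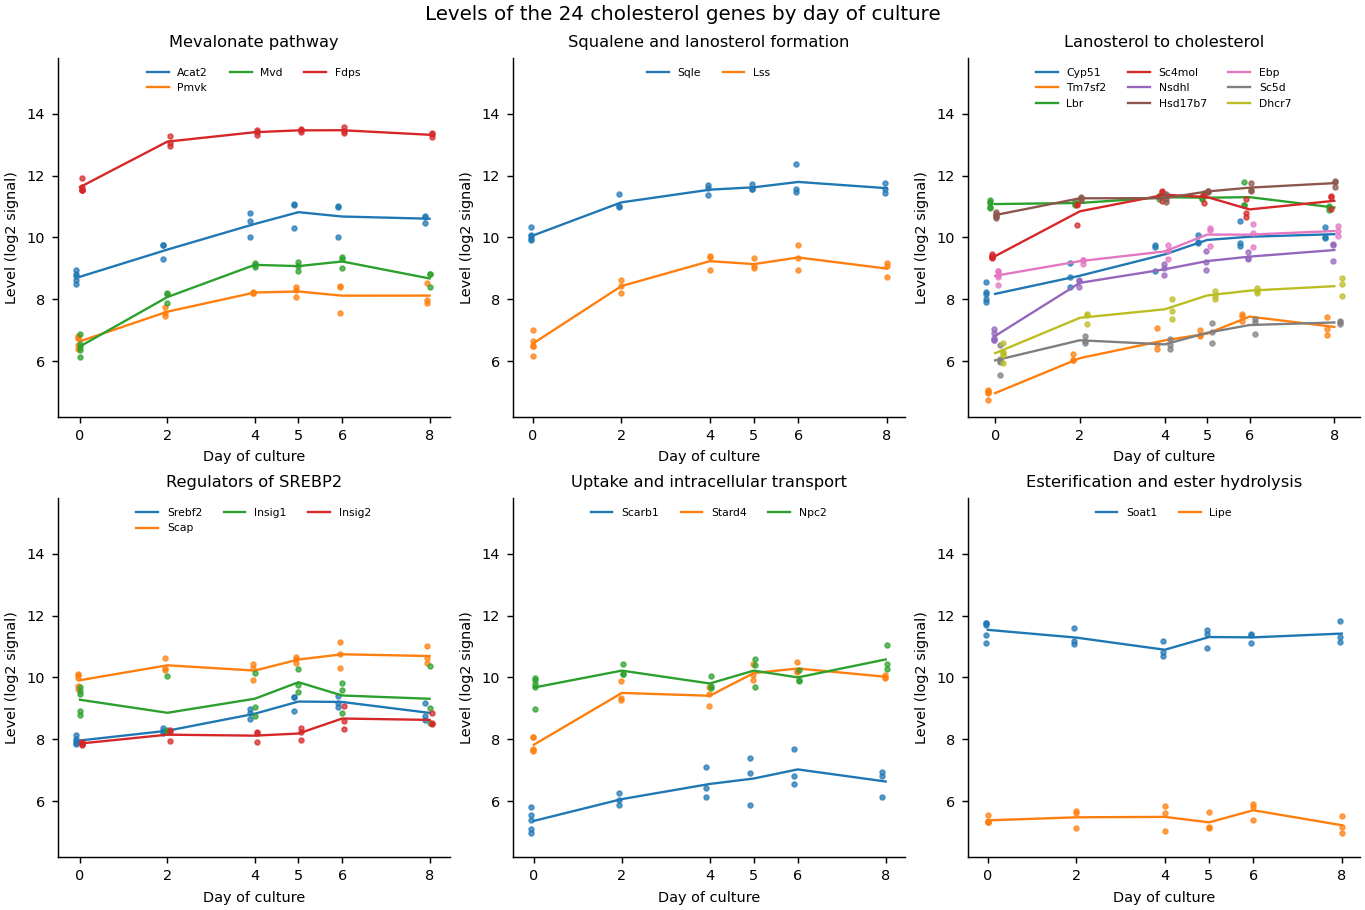
Levels of the 24 genes tested (log2 signal, vertical axis) by day of culture (horizontal axis), with a panel for each step of the pathway. Each point is an array (5 at day 0, 3 on other days) and each line joins the means. Lines of the synthesis enzymes climb from day 0 to day 2, apart from Lbr, while Soat1 and Lipe overlap between these days. Lines are compared within a gene; probes differ in brightness, so heights of different genes are not comparable.

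At the top of the pathway, all 4 tested genes of the mevalonate branch rose by day 2. Mvd encodes the decarboxylase that makes isopentenyl diphosphate, the isoprenoid unit. Its levels at day 0 were 6.54, 6.35, 6.14, 6.88 and 6.45, and at day 2 they were 8.19, 8.15 and 7.87. The lowest day 2 array was above the highest day 0 array, and the change was 1.60 ± 0.16 (SE; adjusted p = 3.01e-07), a fold of 3.03. Fdps, the synthase that joins isoprenoid units to farnesyl diphosphate, had levels of 11.54, 11.52, 11.52, 11.64 and 11.91 at day 0 and of 12.95, 13.29 and 13.05 at day 2. These groups did not overlap either, with a change of 1.47 ± 0.12 (SE; adjusted p = 2.76e-08). Pmvk, the kinase acting just before Mvd, rose by 0.96, and Acat2, the thiolase that condenses acetyl-CoA at the entry, rose by 0.88 (adjusted p = 0.000746 and 0.00841).

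The enzymes that make squalene epoxide and close it to lanosterol rose as well. Lss, lanosterol synthase, showed the largest change of the 24 at day 2 in the fit used throughout. Its day 0 levels were 6.17, 6.497, 6.48, 6.65 and 7.02, and its day 2 levels were 8.203, 8.63 and 8.43. The groups lay more than 1 log2 unit apart, and the change was 1.86 ± 0.20 (SE; adjusted p = 8.5e-07), a fold of 3.63. Sizes depended on the processing. In the alternative settings that kept all arrays, the day 2 change of Lss ranged from 1.24 to 2.04. That of Mvd ranged from 0.59 to 1.725, that of Nsdhl from 0.73 to 1.75 and that of Fdps from 1.31 to 1.595. Sqle, squalene epoxidase, a rate-controlling oxygenase of the pathway, went from a mean of 10.06 ± 0.175 (SD, n = 5) to 11.13 ± 0.243 (SD, n = 3), with no overlap. That change was 1.07 (adjusted p = 0.000156). A dimmer Sqle probe moved by 1.14 but varied far more within days (SD 0.812 against 0.245) and did not pass (adjusted p over probes = 0.131).

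Of the 9 enzymes between lanosterol and cholesterol, 7 rose by day 2. Nsdhl, the dehydrogenase of the complex that strips methyl groups from the sterol ring, led them in the fit used throughout. Its levels were 6.67, 6.90, 6.76, 6.67 and 7.05 at day 0 and 8.63, 8.58 and 8.38 at day 2. No array of either day overlapped with the other day, and the change was 1.72 ± 0.16 (SE; adjusted p = 1.67e-07), a fold of 3.29. The 3 other Nsdhl probes rose by 1.34, 1.24 and 0.94, and each passed when probes were fitted one by one. Sc4mol, now named Msmo1, the oxygenase of the same complex, rose by 1.45 ± 0.16 (SE; adjusted p = 2.11e-06), from between 9.34 and 9.47 at day 0 to 11.07, 11.04 and 10.42 at day 2. Hsd17b7, the ketosterol reductase of the complex, which also turns oestrone into oestradiol, rose by 0.54 (adjusted p = 0.00064).

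Dhcr7, which catalyses a final reduction to cholesterol, had levels of 6.29, 6.18, 5.95, 6.26 and 6.59 at day 0 and of 7.201, 7.51 and 7.48 at day 2, a change of 1.14 (adjusted p = 3.77e-05). The groups did not overlap. Sc5d, the sterol desaturase, rose by 0.65 (adjusted p = 0.0126; not passed without day 2 repeat 2), and Ebp, the sterol isomerase, by 0.47. The call for Ebp was borderline at an adjusted p of 0.0496 and was lost in 18 of 31 alternative settings, among them the authors' values and 13 of the 20 fits that left out 1 array; its day 2 arrays (9.15, 9.26 and 9.28) were still above the highest day 0 array (8.93). Cyp51, the demethylase that begins the conversion of lanosterol, did not pass at day 2 (0.59, adjusted p = 0.06), and its day 2 level of 8.41 lay inside the day 0 range of 7.89 to 8.55.

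Tm7sf2 and Lbr encode sterol reductases that carry out the same reaction, Lbr being also the lamin B receptor of the inner nuclear membrane, and they behaved differently. Tm7sf2 was above background on 0 of 5 day 0 arrays and on 3 of 3 arrays of every later day. Its day 2 levels were 6.02, 6.05 and 6.22, at least 1.63-fold higher than at day 0. Tm7sf2 passed the filter on low signals through the later days only. Its p-value (adjusted p = 1.59e-05 in limma) is for the fitted change of 1.13 from levels below background. That change ranged from 0.20 to 1.21 in the alternative settings that kept all arrays. Lbr was above background on all arrays, with 10.94, 10.98, 11.13, 11.11 and 11.22 at day 0 and 11.19, 11.06 and 11.09 at day 2. Its groups overlapped, and the interval of its change reached from −0.26 to 0.33 (95%; adjusted p = 0.899). The difference between the changes of these 2 genes was not tested.

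None of the 4 regulators passed at day 2 by its brightest probe. Srebf2, which encodes SREBP2, had levels of 8.13, 7.94, 7.88, 7.84 and 8.02 at day 0 and of 8.35, 8.197 and 8.28 at day 2. Its groups did not overlap, but the change of 0.32 ± 0.14 (SE) did not pass (adjusted p = 0.123). Scap changed by 0.48 (adjusted p = 0.0643) and Insig2 by 0.29 (adjusted p = 0.193). With arrays weighted by their quality, in which day 6 repeat 1 had a weight of 0.127, these 3 genes passed (adjusted p = 0.0422, 0.0392 and 0.0278). Those weights raised the count over all 10688 genes, in either direction, from 2688 to 4802, so passing there is not particular to these 3.

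Insig1, itself a classical target of SREBP2, gave opposite answers by probe. The brightest probe, used in the fit, read 9.56, 9.46, 9.68, 8.79 and 8.91 at day 0 and 10.04, 8.23 and 8.304 at day 2. The day 2 arrays lay on either side of the day 0 arrays, and the change was −0.42 ± 0.44 (SE; adjusted p = 0.545). The second probe read 7.201, 7.11, 6.86, 7.28 and 7.46 at day 0 and 8.51, 7.91 and 7.87 at day 2, and the dimmest 6.95, 6.96, 6.84, 7.34 and 7.32 and then 8.27, 7.96 and 7.596. For both of these every day 2 array was above every day 0 array, with changes of 0.92 and 0.86 (adjusted p over 14490 probes = 0.0218 and 0.0292). They also passed at day 8 against day 0 (0.76 and 0.79, adjusted p = 0.0339 and 0.027), where the brightest probe changed by 0.03. The brightest probe had the wider spread within days, an SD of 0.68 against 0.42 and 0.41, and was above background on 5 of 5 brain reference arrays against 1 of 5 for each of the others. A further probe of Insig1 was not above background on any follicle array. With the kept probes averaged, Insig1 changed by 0.45 (adjusted p = 0.245) at day 2.

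**Figure D2:**
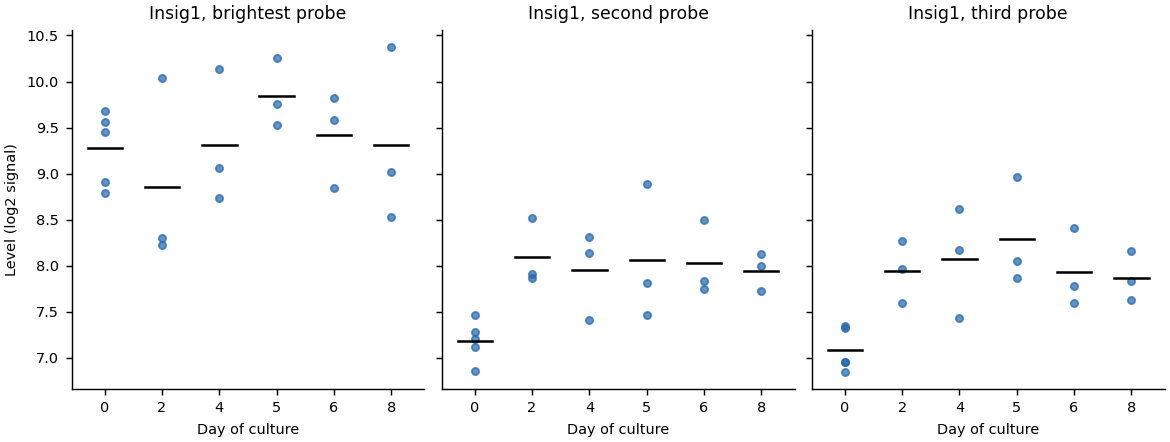
Level of Insig1 (log2 signal, vertical axis) by day of culture (horizontal axis) for its 3 probes above background, a point per array and a bar at each mean. The 2 dimmer probes sit lower at day 0 than at day 2 with no overlap, whereas the day 2 arrays of the brightest probe spread from 8.23 to 10.04 around the day 0 arrays.

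Among genes of uptake and transport, Stard4, a soluble carrier that moves sterol between membranes, rose at day 2. Its levels were 7.63, 7.69, 8.07, 8.08 and 7.65 at day 0 and 9.89, 9.35 and 9.26 at day 2. The groups were more than 1 log2 unit apart, with a change of 1.67 ± 0.18 (SE; adjusted p = 9.75e-07), a fold of 3.19. Scarb1, the receptor for high-density lipoprotein through which steroid-making cells take up cholesteryl ester, changed by 0.71 with an interval from 0.04 to 1.37 and did not pass (adjusted p = 0.119). It was above background on 3 of 5 day 0 arrays and on every later array. Npc2, a lysosomal sterol-binding protein, changed by 0.55 and did not pass either (adjusted p = 0.097).

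Genes of cholesteryl ester turnover gave no call. Soat1, which esterifies cholesterol, had levels of 11.69, 11.76, 11.75, 11.12 and 11.37 at day 0 and of 11.60, 11.08 and 11.19 at day 2, with overlap between the groups (−0.25, adjusted p = 0.399). Lipe, hormone-sensitive lipase, which releases cholesterol from its esters, was near background, being detected on 9 of 20 follicle arrays. Its day 0 levels were 5.34, 5.35, 5.33, 5.32 and 5.55, and its day 2 levels of 5.14, 5.61 and 5.68 lay on both sides of them (0.10, adjusted p = 0.782). With the quality weights, Soat1 (−0.48) and the brightest probe of Insig1 (−0.97) fell at day 2 (adjusted p = 0.00646 and 0.00815). These were the only falls called at day 2 among the alternatives tried. The weights also raised the count over all genes, in either direction, from 2688 to 4802.

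Between day 2 and day 4, 4 of 24 genes rose (3.05% of all genes) and 0 fell (5.34% of all genes); the unadjusted limma counts were 10 and 0. They were Mvd (1.04, adjusted p = 0.000726), Lss (0.81, adjusted p = 0.0259), Tm7sf2 (0.57, adjusted p = 0.0408) and Srebf2 (0.55, adjusted p = 0.0395). Mvd reached 9.16, 9.12 and 9.05 at day 4, all above its 3 day 2 arrays. Srebf2 reached 8.86, 8.64 and 8.98, also without overlap. This count moved with single arrays: it was between 1 and 7 when each array was left out in turn, 7 without day 6 repeat 1 and 1 without day 2 repeat 3. It was 2 without day 0 repeat 2, 3 or 5, without day 2 repeat 1 or 2, or without day 4 repeat 1.

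From day 4 on, no step between neighbouring days gave a call among these genes. Day 5 against day 4 had 0 higher (0.543% of all genes) and 0 lower (0.412%), with unadjusted limma counts of 4 and 0. Day 6 against day 5 had 0 higher (0.711%) and 0 lower (0.627%), with unadjusted counts of 2 and 1. Day 8 against day 6 had 0 higher (0.477%) and 0 lower (0.290%), with unadjusted counts of 1 and 4. With few genes of any kind called over these steps, these counts do not show that levels stayed constant. The genes at an unadjusted p under 0.05 from day 6 to day 8 included Mvd (−0.55) and Srebf2 (−0.35) on the lower side and Npc2 (0.58) on the higher side.

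Over the longer span from day 2 to day 8, 10 of 24 genes rose (10.1% of all genes) and 0 fell (12.3% of all genes), with unadjusted limma counts of 15 and 0. The median change of the 24 was 0.52, or 0.29 in the authors' values, against close to 0 for all genes. Of the 9 enzymes after lanosterol 7 rose, against 2 of 4 in the mevalonate branch and 0 of the 2 that form lanosterol. The difference between these shares was not tested. Lss (0.57), Sqle (0.46) and Pmvk (0.52) did not pass (adjusted p in limma = 0.0702, 0.108 and 0.0824), nor did Fdps (0.22). Sc5d (0.58) and Hsd17b7 (0.49) passed with changes similar to those of Lss, Sqle and Pmvk. The regulator Srebf2 rose by 0.58 (adjusted p = 0.013). With the quality weights 16 genes rose, while the count over all genes, in either direction, went from 2396 to 3885. The call for Sc5d (0.58, adjusted p = 0.0498) was lost in 16 of 30 alternative settings, 14 of them fits that left out 1 of the 20 arrays. That for Mvd (0.60, adjusted p = 0.016) was lost without day 2 repeat 3, day 8 repeat 2 or day 8 repeat 3, that for Srebf2 without day 2 repeat 2 or day 8 repeat 1, and both with median scaling (highest adjusted p 0.0878 for Mvd and 0.0812 for Srebf2).

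Cyp51 changed most over this span. Its levels were 9.16, 8.72 and 8.41 at day 2 and 10.01, 9.97 and 10.34 at day 8. The day 8 arrays lay above all day 2 arrays, and the change was 1.34 ± 0.25 (SE; adjusted p = 0.000477), a fold of 2.54. Nsdhl rose further, from 8.63, 8.58 and 8.38 to 9.79, 9.23 and 9.75, a change of 1.06 (adjusted p = 0.000181). Its groups did not overlap. Dhcr7 went to 8.68, 8.48 and 8.11 at day 8, above all its day 2 arrays, a change of 1.02 (adjusted p = 0.000379). Tm7sf2 went to 7.05, 7.42 and 6.85, a change of 1.01 (adjusted p = 0.00018), also without overlap. Acat2 (1.00), Ebp (0.98) and Hsd17b7 (0.49) complete the list with Sc5d, Mvd and Srebf2.

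**Figure D3:**
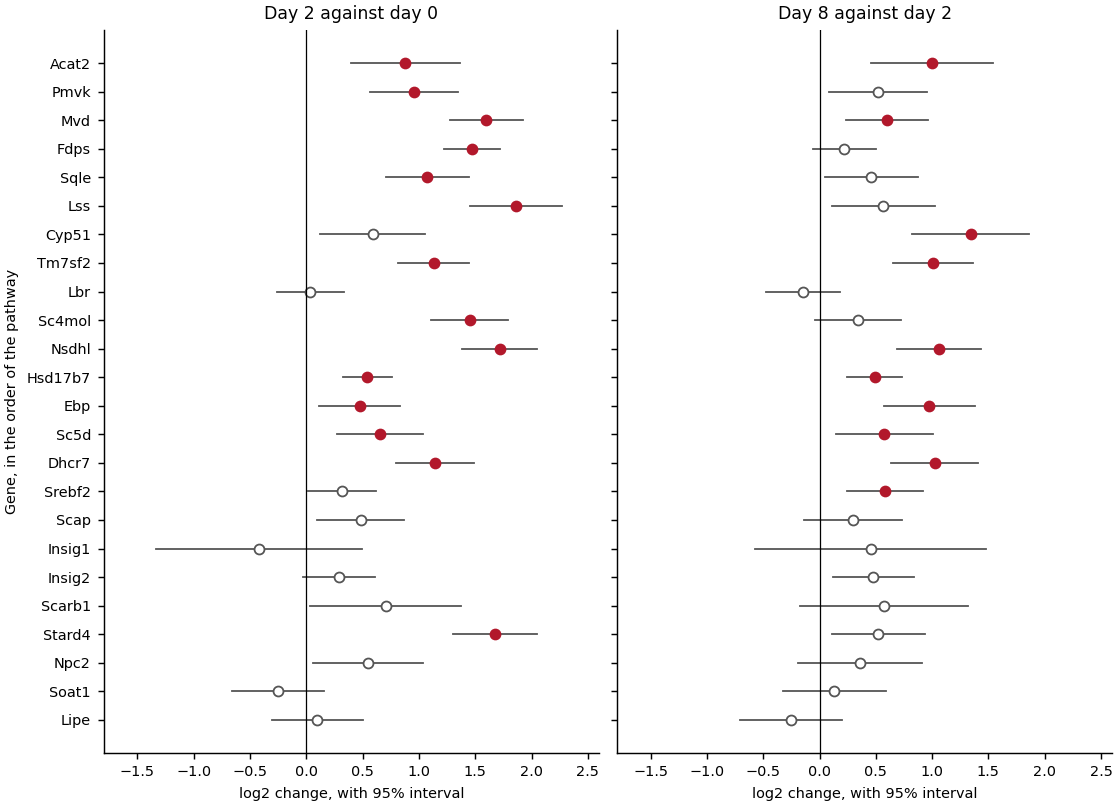
Change (log2) of the 24 genes with its 95% interval from day 0 to day 2 (left) and from day 2 to day 8 (right), in the order of the pathway from top to bottom. Filled circles passed an adjusted p of 0.05 and open circles did not. Pmvk, Fdps, Sqle, Lss, Sc4mol and Stard4 are filled on the left and open on the right, and Cyp51 and Srebf2 are open on the left and filled on the right.

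Over the whole culture, day 8 against day 0, 20 of 24 genes rose (20.6% of all genes) and 0 fell (22.8% of all genes); the unadjusted limma counts were the same. The 20 comprised 14 of 15 synthesis enzymes, all 3 genes of uptake and transport and 3 of 4 regulators, and Lbr, Insig1, Soat1 and Lipe did not pass. The median change of the 24 was 1.46 against close to 0 for all genes. It was 0.71 in the authors' values, in which 17 of 21 rose (the share of all genes there is not given). With day 0 counted as 1 sample 16 rose, and Scap, Insig2, Scarb1 and Npc2 did not (adjusted p between 0.0699 and 0.115). Calls over all genes fell with day 0 as 1 sample as well (closing section). The count of rising genes among the 24 was 20 in each of the 20 fits that left out 1 array.

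Nsdhl had the largest change at day 8, 2.78 ± 0.16 (SE; adjusted p = 6.91e-11), a fold of 6.87 over day 0. Lss followed with 2.43 ± 0.20 (SE; adjusted p = 7.17e-09), its day 8 levels being 8.72, 9.06 and 9.18 against 7.02 at most on day 0. Mvd stood at 8.39, 8.81 and 8.81 at day 8, a change of 2.198 (adjusted p = 1.24e-09). Stard4 stood at 10.08, 9.98 and 10.00, likewise a change of 2.198 (adjusted p = 7.81e-09). For Nsdhl, Lss, Mvd and Stard4 no day 8 array overlapped with day 0. Dhcr7 rose by 2.17, and the level of Tm7sf2 exceeded its day 0 level at least 3.28-fold.

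The regulators and the other genes of uptake and transport rose by day 8 as well, apart from the brightest Insig1 probe. Srebf2 rose by 0.89 (8.85 ± 0.271 at day 8 and 7.96 ± 0.116 at day 0, SD; n = 3 and 5; adjusted p = 4.4e-05 in limma). Scap rose by 0.78 (adjusted p = 0.00183) and Insig2 by 0.77 (adjusted p = 0.000417). The second Insig2 probe changed by −0.20 at day 2 (adjusted p = 0.409) and by 0.68 at day 8 (adjusted p = 0.00143), so both probes passed at day 8. Scarb1 rose by 1.27 (adjusted p = 0.00287), reaching 6.14, 6.95 and 6.81, all above its highest day 0 level of 5.81. Npc2 rose by 0.91 (adjusted p = 0.00354), to 11.04, 10.27 and 10.44. The genes that did not pass kept intervals around 0: Lbr from −0.41 to 0.18, Soat1 from −0.53 to 0.29, Lipe from −0.56 to 0.25, and the brightest Insig1 probe from −0.88 to 0.95.

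**Figure D4:**
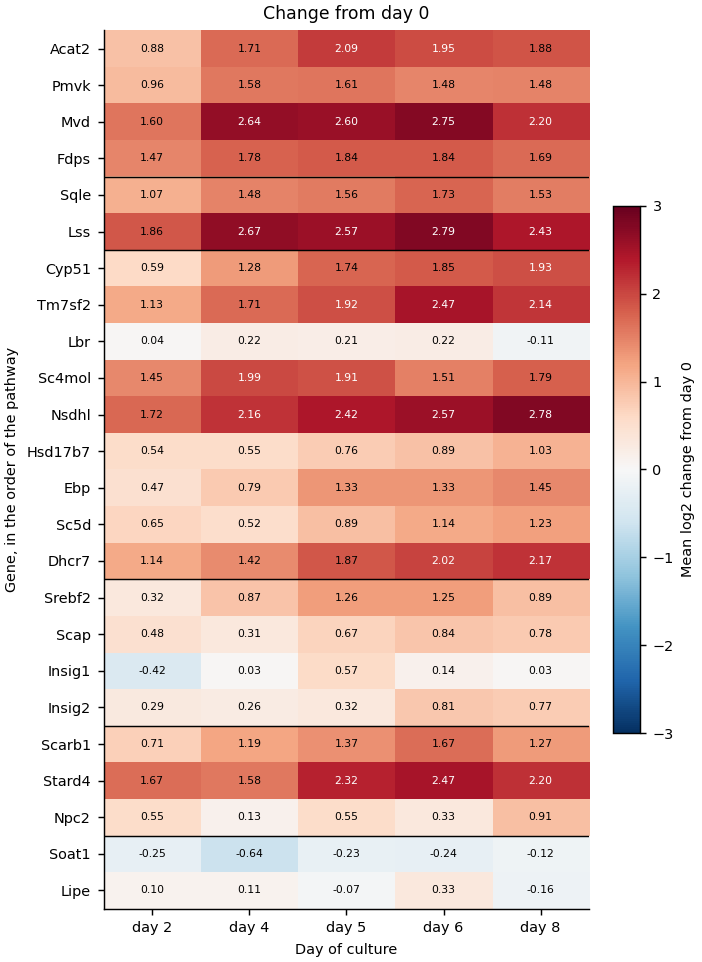
Mean log2 change from day 0 (colour and printed value) of the 24 genes (rows, in the order of the pathway, black lines between steps) on each later day (columns). Red is higher and blue lower than day 0. Mvd and Lss read 1.60 and 1.86 at day 2 and 2.75 and 2.79 at day 6, whereas Cyp51 and Ebp go from 0.59 and 0.47 at day 2 to 1.93 and 1.45 at day 8. The rows of Lbr, Insig1, Soat1 and Lipe stay pale.

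All 6 days together, 20 of 24 genes differed in limma's moderated F test (50% of all genes did, 5339 of 10688), the same 4 genes failing. In 20 of the 24 the lowest mean was that of day 0. The highest mean fell on day 6 in 11 genes, on day 8 in 7, on day 5 in 4, on day 4 in 1 and on day 0 in 1. Such counts over all genes are not given, so these only describe the 24. The 7 with their highest mean at day 8 were 6 enzymes after lanosterol (Cyp51, Nsdhl, Hsd17b7, Ebp, Sc5d and Dhcr7) and Npc2. No enzyme before lanosterol had its highest mean at day 8. Those of Acat2 and Pmvk were on day 5 and those of Mvd, Fdps, Sqle and Lss on day 6. For Sqle this rests on day 6 repeat 1, at 12.36 against 11.56 and 11.47, with a day 5 mean of 11.62. The day 6 maximum of Lbr also rests on 1 array, at 11.79 against 11.05 and 11.06, with a day 4 mean of 11.30. The means of neighbouring days after day 4 did not differ beyond the threshold in any of these genes, so the order of those days is a description.

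The part of the day 8 rise that was already present at day 2 differed between genes. It was 86.9% for Fdps, 81.0% for Sc4mol, 76.6% for Lss, 76.2% for Stard4, 72.7% for Mvd and 70.1% for Sqle. It was 30.5% for Cyp51, 32.7% for Ebp, 35.3% for Srebf2 and 37.6% for Insig2. Nsdhl (61.9%), Hsd17b7 (52.5%), Tm7sf2 (52.8%), Dhcr7 (52.8%) and Acat2 (46.8%) lay between. These shares are ratios of fitted means, given without a test. By step, the mean change of the 2 lanosterol-forming enzymes was 1.47 at day 2 and 1.98 at day 8, that of the 4 mevalonate enzymes 1.23 and 1.81, and that of the 9 later enzymes 0.86 and 1.60.

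Other genes of sterol handling did not move as one. Of 31 tested from a list of 40, 8 rose and 4 fell at day 2 (12.1% and 13.1% of all genes), and 15 rose and 5 fell at day 8 against day 0 (20.6% and 22.8% of all genes), so the falls were no more frequent than over all genes. Abca7, a lipid transporter, rose by 2.41 at day 2 and by 3.23 at day 8, and Apoe, the apolipoprotein, by 1.21 and 0.84. Those that fell included Cav1 (caveolin, −1.28 and −1.09), Apoa1 (the main protein of high-density lipoprotein, −1.10 and −1.95) and, at day 8, Ch25h (cholesterol hydroxylase, −1.05). Cyp27a1, a sterol hydroxylase, fell at day 2 (−0.77) and was higher at day 8 (1.33).

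Genes of fatty acid synthesis rose in 6 of 12 at day 2 (12.1% of all genes) and in 12 of 12 at day 8 against day 0 (20.6% of all genes), and 0 fell. Scd1, the stearoyl-CoA desaturase, rose by 2.51 and 4.59, Acss2, which makes acetyl-CoA from acetate, by 1.02 and 2.08, Mid1ip1, an activator of acetyl-CoA carboxylase, by 0.85 and 1.33, and Fads2, a desaturase, by 0.56 and 2.93. Genes of steroid synthesis, which uses cholesterol, went 4 of 10 up and 2 of 10 down at day 2 (12.1% and 13.1% of all genes) and 8 of 10 up at day 8 (20.6% of all genes). Cyp11a1, which cuts the cholesterol side chain, changed by −0.20 at day 2 (adjusted p = 0.497) and rose by 1.85 by day 8 (adjusted p = 1.67e-07). Cyp17a1, of androgen synthesis, fell by 1.87 at day 2 (adjusted p = 5.06e-07) and was 1.45 above day 0 at day 8. Hsd3b1 rose by 1.16 and 1.89, and Cyp19a1, aromatase, by 0.91 and 3.10. Por, the reductase that feeds electrons to microsomal enzymes such as Cyp17a1, Cyp19a1, Cyp51 and Sqle, was 1.02 lower at day 2 (log2 change −1.02, adjusted p = 0.000678).

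On the 5 brain reference arrays, 18 of the 24 genes were above background on all 5, Nsdhl and Sc5d on some, and Mvd, Lss, Tm7sf2 and Scarb1 on 0. All 4 were above background on every follicle array from day 2 on. These arrays were not normalized with the follicles, so levels were not compared.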

How the data were processed

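The sources were 20 follicle arrays in 6 day groups and 5 arrays labelled brain reference. Per the file headers, the deposited table gives for 25697 probes a mean bead intensity, its standard error, a detection p-value and the bead count (a unit of another kind), none of them normalized. In a second table the authors deposited log2 values for 23286 probes. Array medians there lie between 7.87 and 7.89, so these values had been normalized between arrays; neither software nor method is named in the sources used here.

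Follicle intensities were background corrected from the detection p-values and quantile normalized with neqc (offset 16; limma 3.58.1, R 4.3.3). A probe was kept if its detection p was below 0.05 in 3 or more of the 20 arrays (14490 probes), and the brightest stood for each symbol (10688 genes). Of 18138 symbols, 14307 were current in RefSeq and 2906 were updated. One linear model with a mean for each day was used (lmFit, eBayes), so that all days share an estimate of spread. A gene was not above background on a day when 0 arrays had a detection p below 0.05. A fold against such a day was taken against the lowest level above background of each array (5.28 to 5.745) and is written "at least". The number of arrays limits the precision.

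The genes and lists were chosen with earlier results of these data known. Values per array are given for up to 4 genes that passed with the largest change in each main comparison, for genes that passed in none and for the highest and lowest by level; from other lists up to 3 genes in each direction are named, some not reported here, and further genes were added to show each step. The fit was checked on simulated data. Alternatives are given in the closing section.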

Additional observations from a re-analysis of the deposited data

Results flagged for a closer look

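At day 0, the only day with enough arrays for the check, each of the 24 genes was examined for an array far from the other 4, and 2 genes had one; chance gives about 1 in 20. Tm7sf2 read 4.739 on day 0 repeat 4 against 4.979 to 5.062 on the others (the gap was 0.742 of the range), and it was not above background on any day 0 array. Lipe read 5.551 on day 0 repeat 5 against 5.325 to 5.345 on the others (gap 0.909 of the range), and this was the 1 day 0 array on which it was above background.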

How the results depend on the processing

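Calls for day 8 against day 0 were lost in 4 cases, all with day 0 as 1 sample, and kept in 218 others and in all 400 with 1 array left out. This tally did not include the requirement of a log2 change of at least 1. Srebf2 (0.89), Scap (0.78), Insig2 (0.77) and Npc2 (0.91) were called at day 8 but fell short of that change. Rises at day 2 numbered 8 with day 0 as 1 sample and 9 when a log2 change of at least 1 was required; falls numbered 2 with array weights. From day 2 to day 8, 16 rose with array weights and 4 at a change of at least 1. From day 2 to day 4, 2 changed in the authors' values and with day 0 as 1 sample, 1 with median scaling and at a change of at least 1, 9 with array weights, and 1 to 7 with an array left out. Among later steps, array weights gave 1 call from day 4 to 5 and 1 from day 5 to 6, median scaling 1 from day 5 to 6, and the authors' values 1 from day 6 to 8. In the authors' values the median changes were 0.350, 0.287 and 0.709 (day 2 over 0, 8 over 2, 8 over 0), and the last was 1.001 without background correction. The cause of these differences between fits was not tested. Read on 1 strand, where CCAAT alone was searched and ATTGG left out, 11 of the 24 genes with a promoter window held an NF-Y box. That was 45.8%, against 23.7% of all genes, and on both strands 83.3% against 41.1%.

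Signs turned for genes not called. For Insig1 at day 2 the change was 0.452 with probes averaged and 0.862 and 0.916 by the other probes. From day 2 to 8 these probes gave −0.0719 and −0.153, and with an array left out the range was −0.0814 to 1.047. From day 0 to 8 it was −0.351 with array weights and −0.257 with the replicate block, and −0.502 to 0.421 with an array left out. Insig2 was −0.198 at day 2 by its second probe. The second Lipe probe gave 0.00735 (day 2 to 8) and 0.0341 (day 0 to 8), and with an array left out Lipe ranged from −0.00243 to 0.263, from −0.418 to 0.268 and from −0.171 to 0.296 (day 0 to 2, 2 to 8, 0 to 8). Soat1 ranged from −0.0687 to 0.286 (day 2 to 8) and from −0.318 to 0.0187 (day 0 to 8), and Lbr from −0.00173 to 0.0720 (day 0 to 2).

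Deviations of same-numbered arrays had a median correlation of −0.0572 (from −0.423 to 0.559). For arrays of other numbers it was 0.0301 (from −0.584 to 0.555). No pairing by repeat number was visible, but such wide ranges cannot exclude one. With the replicate block 12 rose at day 2, Ebp and Sc5d no longer passing, 10 from day 2 to 8 and 20 from day 0 to 8.

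Over all genes, counts called at day 2 (2688) were 4802 with array weights, 498 with day 0 as 1 sample and 615 at a change of at least 1. From day 2 to 8 (2396) they were 3885 with array weights and 885 at a change of at least 1, and from day 0 to 8 (4637) 2113 with day 0 as 1 sample and 1749 at a change of at least 1. The F test (5339) gave 2662 with day 0 as 1 sample. Other settings gave 276 to 2321 from day 2 to 4 (897), 17 to 200 from day 4 to 5 (102), 0 to 246 from day 5 to 6 (143) and 3 to 254 from day 6 to 8 (82).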
